A study of Solanum tuberosum with 6 samples.

Results

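Amino acid permease 2 (AAP2) and lysine histidine transporter 1 (LOC102596930, called LHT1 below) are a pair of amino acid transporter genes of potato, and their transcripts were followed here in leaves of 2 bulks. They are 2 of the 32768 genes in the count table. Both were chosen by name with their difference between the bulks already known, so their own values are given as a description and without a test. The leaves came from diploid hybrid population 15-1, an F1 between an interspecific Solanum hybrid and S. chacoense, and were taken untreated at full anthesis. Bulk C had low glycoalkaloids and a high phytotoxic potential, the ability of its leaf extract to slow the growth of another plant. Bulk D had low glycoalkaloids and a low phytotoxic potential. Each bulk was a mixture of leaf from 3 F1 plants, so the libraries of a bulk may repeat the same mixture and every p-value covers only the spread between libraries, which may be technical. The comparison asks which transcripts accompany the phytotoxic potential when total glycoalkaloids are low in both bulks. Their total was similar, but their composition was not. The paper reports alpha-solasonine in C alone, leptine II as the most frequent glycoalkaloid in D, and more flavonoids in D. Transcripts that go with the phytotoxic potential cannot be told apart from those that go with these differences.

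AAP2 and LHT1 belong to plant families of proton-coupled importers, which move amino acids across the plasma membrane into the cell together with protons. In Arabidopsis, AAP2 sits in the phloem and passes amino acids from the xylem stream to the phloem, by which they reach seeds and other sinks. In Arabidopsis, LHT1 takes up a broad range of amino acids from the soil into roots and from the leaf apoplast into mesophyll cells. The potato genes carry these names in their annotation, and their transport activity was not measured here.

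The table gave 3 libraries of C (C1, C2 and C3) and 2 of D (D1 and D2), with 22070364 to 22769554 counts on genes. The names in the header were read as standing 1 field left of their counts, because a name stands over the gene column. This reading was taken over from earlier work on these data, which had used the counts as well as the names, and it was not tested here. With the names as they stand, C3 would be a library of D, and the count column that was not used would be a library of C. D3 was not analysed here. In the fit across 19630 tested genes (edgeR quasi-likelihood test, Benjamini-Hochberg adjusted p under 0.05), 3111 genes were higher in C, or 15.8% of those tested, and 3649 were higher in D, or 18.6%. Without C3 the number higher in C was 2029, and without D2 they were 2072 for C and 2394 for D. When counts were scaled to library totals alone, the numbers became 1966 and 4712 genes and the median log2 fold change (FC) of all genes moved to -0.11, against -0.0092 with the trimmed mean of M-values (TMM) scaling. With only 3 libraries against 2, an exact permutation test of 1 gene could not give a p under 0.1.

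AAP2 lies on an unplaced sequence of the SolTub_3.0 assembly at positions 127265 to 132378, a span of 5114 bases with 1 annotated transcript. It drew 4546, 4857 and 4657 counts in C1, C2 and C3, against 4221 and 3830 counts in D1 and D2. Scaled by TMM, these were 214.5, 212.5 and 211.2 counts per 1000000 counts (CPM) in C, against 171.7 and 172.2 CPM in D. All C libraries stood above both D libraries. The bulks were separated by 39.0 CPM between the lowest C library and the highest D library. The means were 212.8 ± 1.69 CPM in C (SD, n = 3) and 172.0 ± 0.365 CPM in D (SD, n = 2). The log2 FC, C over D, was 0.31 with a standard error of 0.08, a level 23.7% higher in C.

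LHT1 also lies on unplaced sequence of this assembly, at positions 3637341 to 3640532, and spans 3192 bases with 1 annotated transcript. It drew 941, 951 and 912 counts in C1, C2 and C3, against 1936 and 1754 counts in D1 and D2. In TMM-scaled units these were 44.41, 41.62 and 41.35 CPM in C, against 78.75 and 78.87 CPM in D. Here the order was the opposite of that of AAP2, with both D libraries 34.3 CPM or more above every C library. The means were 42.46 ± 1.69 CPM in C (SD, n = 3) and 78.81 ± 0.0826 CPM in D (SD, n = 2). The log2 FC, C over D, was -0.89 with a standard error of 0.08, which is 1.86-fold higher in D.

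**Figure D1:**
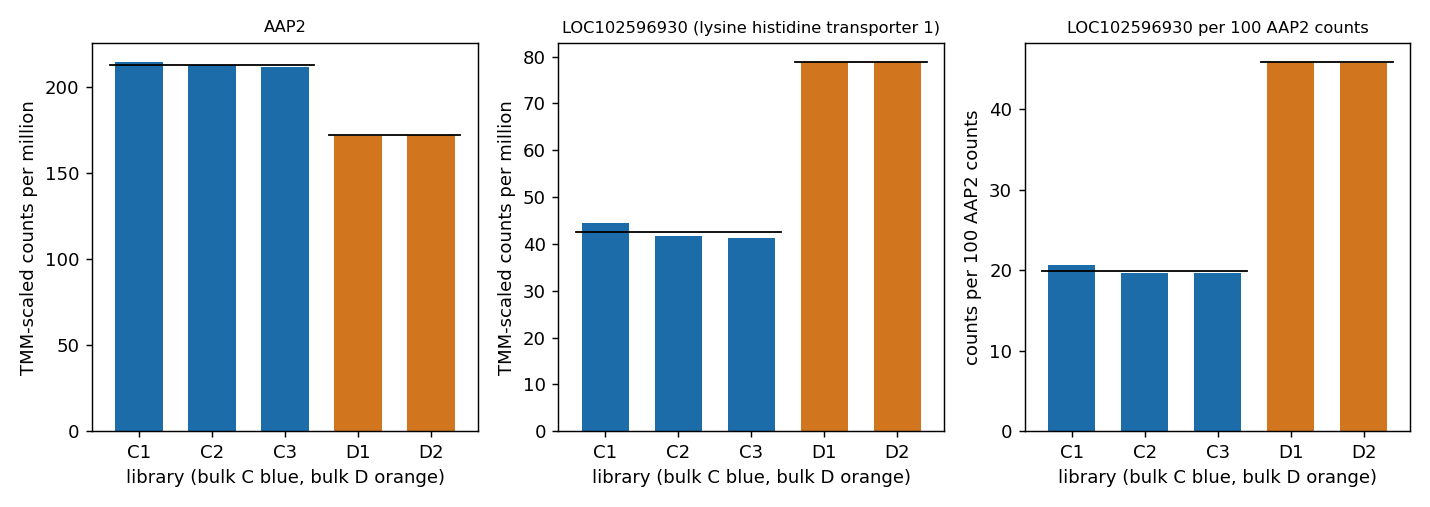
Level of AAP2, level of LOC102596930 (both in TMM-scaled CPM) and LOC102596930 counts per 100 AAP2 counts in each library, with bulk C in blue and bulk D in orange; black lines are bulk means. AAP2 stands at 211.2 to 214.5 CPM in C and 171.7 to 172.2 CPM in D, and LOC102596930 at 41.35 to 44.41 CPM in C and 78.75 to 78.87 CPM in D.

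A bulk comparison in which no library of C overlaps one of D was common in these data, being met by 57.1% of the tested genes. Nothing is therefore read from the separation alone. The libraries of 1 bulk lay close together for both genes. The coefficient of variation of AAP2 was 0.794% in C and 0.212% in D, and that of LHT1 was 3.98% in C and 0.105% in D. Around the bulk means, the variance between libraries was 0.224 times the counting variance for AAP2 and 0.757 times for LHT1, so the spread between libraries was no wider than counting alone gives. The fit assigned a biological coefficient of variation of 6.56% to AAP2 and 6.36% to LHT1, while the median over tested genes was 9.64%. That median includes genes with few counts. The trend for genes of similar level was closer, at 7.75% for AAP2 and 7.37% for LHT1. The standard errors above come from the quasi-likelihood test, which also draws on the spread of other genes, and do not use these values directly.

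The sizes of the differences had unlike places among all genes. The absolute log2 FC of AAP2 was larger than that of 51.9% of the tested genes, and that of LHT1 was larger than that of 87.2%. The median absolute log2 FC was 0.29 over all tested genes and 0.61 over those that passed the test, so AAP2 was near the middle of all genes and LHT1 was above the middle of the called ones.

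**Figure D2:**
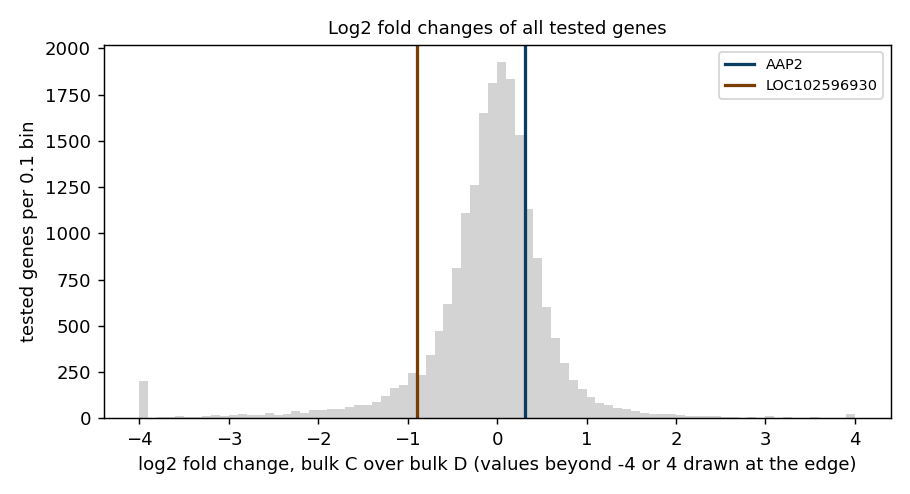
Number of tested genes (vertical axis, per 0.1 bin) by log2 fold change, C over D (horizontal axis), with AAP2 and LOC102596930 as vertical lines. AAP2 at 0.31 lies within the bulk of the genes and LOC102596930 at -0.89 lies on the lower flank.

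The opposite order of the 2 genes can be expressed without any scaling between libraries, as the counts of LHT1 per 100 counts of AAP2 in the same library. This value was 20.7, 19.6 and 19.6 in C1, C2 and C3, against 45.9 and 45.8 in D1 and D2. As a ratio it averaged 0.200 ± 0.00645 in C (SD, n = 3) and 0.458 ± 0.000492 in D (SD, n = 2), which is 2.3-fold higher in D. The ratio does not compare the abundance of the 2 transcripts, since counts were not divided by transcript length, and it was formed after both differences were known.

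Scaling moved the sizes but not the order. With library totals alone, AAP2 stood at 201.3, 213.3 and 206.0 CPM in C, against 185.5 and 173.5 CPM in D, and its log2 FC was 0.20. On the same scale LHT1 stood at 41.67, 41.77 and 40.34 CPM in C, against 85.09 and 79.47 CPM in D, with a log2 FC of -0.996. The bulks stayed apart for both genes, although the libraries of D lay further from each other than after TMM scaling. The sign of each log2 FC was also unchanged when any 1 library was left out, when C3 was placed with D as the header names stand (without the unused column), and with DESeq2 or limma voom. With every C library on the same side of both D libraries, leaving out a library or moving C3 could hardly turn the sign.

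**Figure D3:**
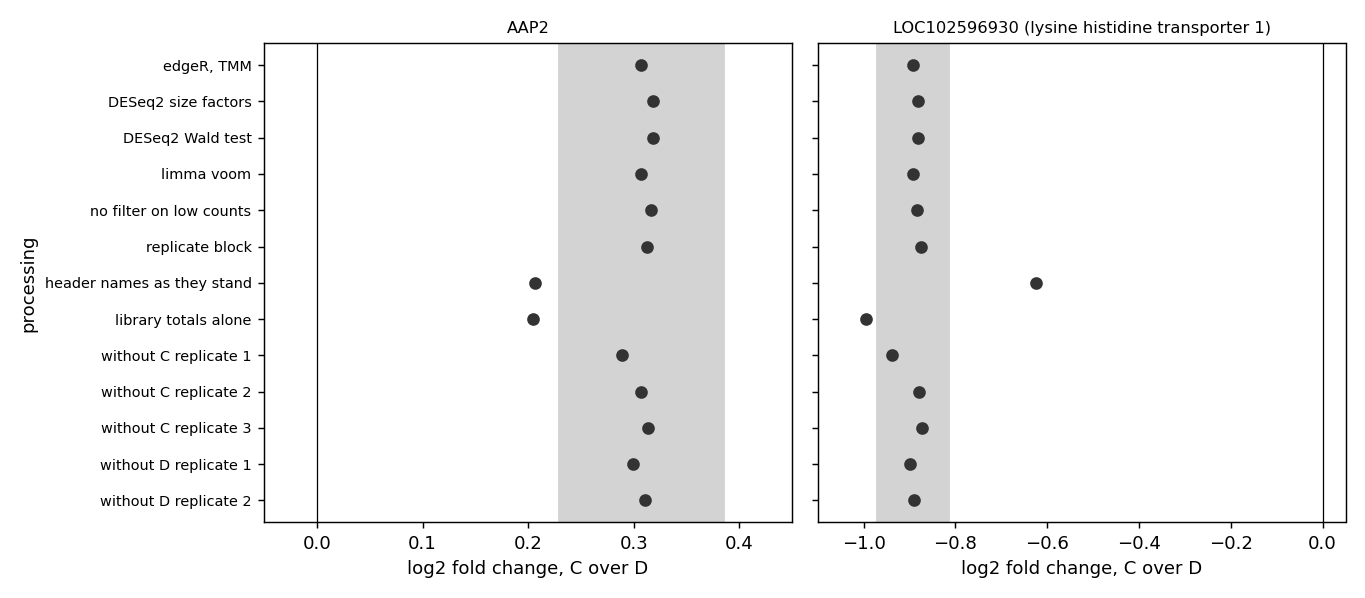
Log2 fold change, C over D (horizontal axis), of AAP2 and LOC102596930 under each way of processing (vertical axis); the grey band is the edgeR value with TMM scaling plus and minus its standard error. Only the header read as it stands, without the unused column (0.21 and -0.63), and scaling to library totals alone (0.20 and -0.996) fall outside the band.

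C3, which changes its bulk with the reading of the header, differed from C2 by -1.37 CPM for AAP2 and by -0.262 CPM for LHT1, C3 minus C2. For AAP2 and LHT1 it thus lay beside C1 and C2 and away from D1 and D2. This closeness is not independent evidence for the reading, since the counts had been used in the earlier work it was taken from.

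The study listed 29 differentially expressed genes under the gene ontology term for amino acid transmembrane transport, LHT1 among them and AAP2 not. The list was chosen by the study on these same libraries, so the number of its members that pass a test is not independent evidence. Of the 28 genes other than LHT1, 5 were higher in C, 18 were higher in D and 5 did not pass the test (edgeR, adjusted p under 0.05). These are 17.9% and 64.3% of the 28 genes, beside the background of 15.8% and 18.6% over all tested genes. The median log2 FC of the 28 was -0.40, with a range from -1.86 to 1.18, against -0.0092 over all tested genes. LHT1 was on the side of the majority, with only 4 of the 28 at a lower log2 FC, and AAP2 on the side of the minority. Without D2 the number higher in D was 10. Of the 5 genes higher in C, 4 passed the test without each library in turn, as did 8 of the 18 genes higher in D.

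**Figure D4:**
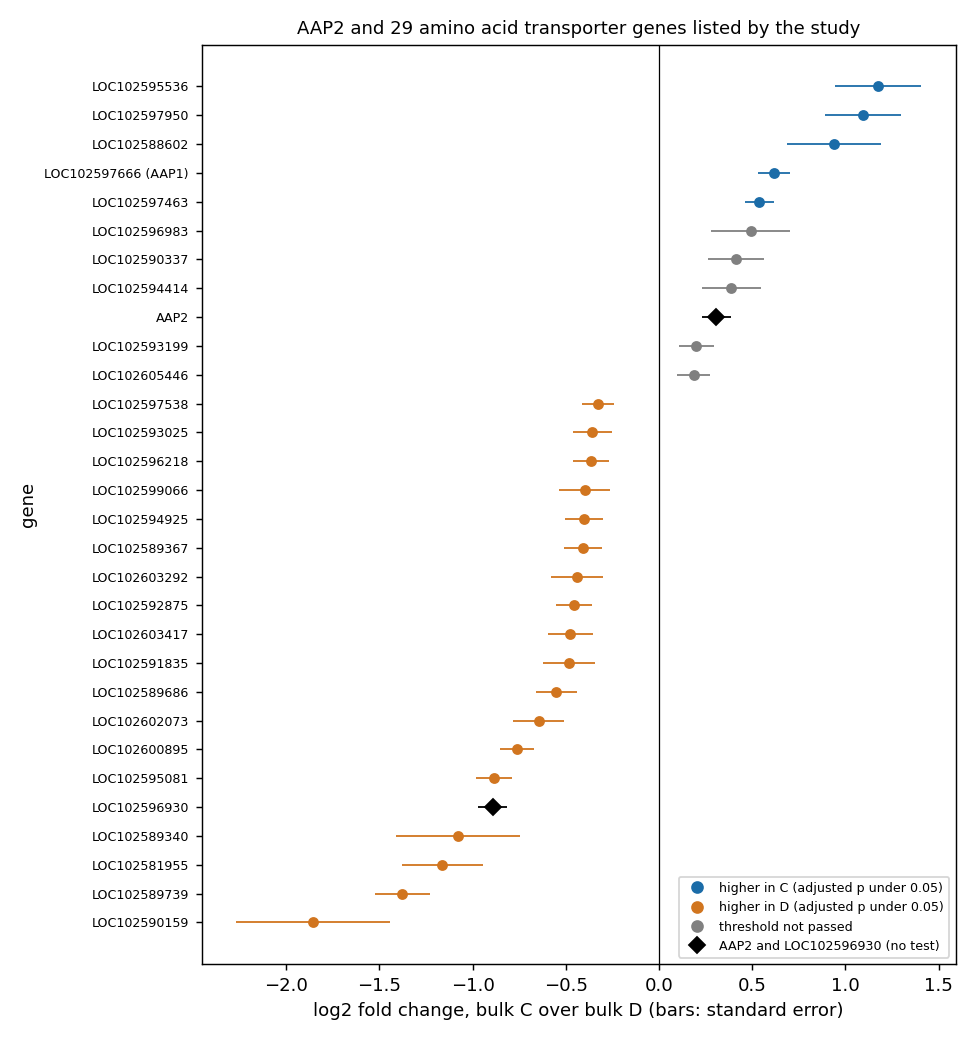
Log2 fold change, C over D (horizontal axis, bars are standard errors), of AAP2 and the 29 amino acid transporter genes listed by the study (vertical axis). Blue genes were higher in C (5), orange genes higher in D (18), grey genes did not pass the test (5), and the black diamonds are AAP2 and LOC102596930, for which no test is given.

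The closest relative of AAP2 by name, LOC102597666, carries the annotation synonym AAP1 and is also an amino acid permease. It drew 1365, 1319 and 1396 counts in C, against 1019 and 869 counts in D. Every C library was above both D libraries, as for AAP2. Its level was 61.8 ± 3.59 CPM in C (SD, n = 3) and 40.3 ± 1.68 CPM in D (SD, n = 2), a log2 FC of 0.62 with a standard error of 0.09 (edgeR adjusted p = 0.000248). The other gene of the list that was higher in C with at least 100 counts on average was LOC102597463, which has no product name in the sources used here, at 135 ± 2.27 CPM in C and 92.8 ± 2.82 CPM in D (log2 FC 0.54, edgeR adjusted p = 0.000303).

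Other genes named as lysine histidine transporters were weakly read, and none that could be tested shared the direction of LHT1. A second gene with the same product name, LOC102597051, drew 0, 6 and 5 counts in C, against 0 and 0 counts in D, too few to be tested. LOC102587875, named lysine histidine transporter-like 6, drew 2, 3 and 0 counts in C, against 1 and 1 in D. LOC102588602, named lysine histidine transporter-like 8, drew 78, 68 and 59 counts in C, against 44 and 32 in D, and was higher in C (log2 FC 0.94, edgeR adjusted p = 0.0141). It is also among the listed transporters higher in C given above. Without D2 it did not pass the test (edgeR adjusted p = 0.0903). LOC102585770, another gene named lysine histidine transporter-like 8, drew 25, 21 and 15 counts in C, against 13 and 9 in D, and did not pass the test (log2 FC 0.97, edgeR adjusted p = 0.103). These 4 genes were taken by name from tables of the study that are ordered by change and were read only in part. They are not a sample of the family, and their direction may follow from how they were found. Whether reads were shared between similar copies was not tested.

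The listed transporters were then grouped by the substrate in their gene ontology terms, a grouping made after the values were seen. Of the whole list 64.3% were higher in D, beside 18.6% of all tested genes. The list holds only genes that the study had called differentially expressed on these libraries, so these shares are not like for like. The groups are small, so no count in them is read as particular to a substrate. All 5 genes annotated to branched-chain and aromatic amino acids were higher in D, and their median was -0.48 on the log2 FC scale. Among them LOC102589739 drew 75, 99 and 91 counts in C, against 258 and 230 in D, and had a log2 FC of -1.38 (edgeR adjusted p = 3.23e-05). The other 4 lay between -0.55 and -0.36. All 3 genes annotated to gamma-aminobutyric acid, an amino acid that is not built into proteins, were also higher in D. Of these, LOC102589340 was read at 0.723 ± 0.109 CPM in C (SD, n = 3) and 1.54 ± 0.012 CPM in D (SD, n = 2), with a log2 FC of -1.08, and LOC102592875 at 20.1 ± 0.995 CPM in C and 27.6 ± 0.652 CPM in D, with a log2 FC of -0.46. Of the branched-chain and aromatic group, LOC102593025, LOC102591835 and LOC102603292 each lost the call without at least 1 library, and so did LOC102589340 and LOC102596218 of the gamma-aminobutyric acid group.

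Both genes annotated to sulfur amino acids were higher in D, LOC102589367 with a log2 FC of -0.41 (edgeR adjusted p = 0.00846, with 0.0528 without C3 and 0.102 without D2) and LOC102602073 with -0.65 (edgeR adjusted p = 0.00346). The only gene annotated to polyamines, LOC102603417, was higher in D as well (log2 FC -0.48, edgeR adjusted p = 0.00917, and 0.0648 without D2). Of 3 genes annotated to acidic amino acids, LOC102597666 (AAP1) was higher in C, and LOC102592875 and LOC102602073, which also carry other substrate terms, were higher in D.

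Genes annotated to proline or serine, and those with no substrate term, went in both directions. Of 3 genes annotated to proline, LOC102597538 was higher in D (log2 FC -0.33, edgeR adjusted p = 0.0113, and 0.0541 without D1). LOC102590337 and LOC102596983 did not pass the test (log2 FC 0.41 and 0.49, edgeR adjusted p = 0.0508 and 0.0959). Without C1 LOC102590337 passed the test (edgeR adjusted p = 0.041), and without D2 LOC102596983 did (edgeR adjusted p = 0.0255). Of 4 genes annotated to serine, LOC102595536 was higher in C (log2 FC 1.18, edgeR adjusted p = 0.0023), LOC102602073 was higher in D as given above, and 2 did not pass the test. Of the 10 genes with no substrate term beside LHT1, 3 were higher in C, 6 were higher in D and 1 did not pass the test. LOC102600895, the most strongly counted of these 10, drew 2373, 2948 and 2903 counts in C, against 5057 and 4800 in D, with a log2 FC of -0.76 (edgeR adjusted p = 6.49e-05). LOC102595081 drew 434, 424 and 448 counts in C, against 867 and 841 in D, with a log2 FC of -0.89 (edgeR adjusted p = 3.27e-05), a size close to that of LHT1. LOC102581955 was less even, with 138, 263 and 247 counts in C, against 641 and 391 in D (log2 FC -1.16, edgeR adjusted p = 0.00163).

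Genes linked to the export of amino acids, or to their movement across other membranes, were read beside these importers. In Arabidopsis, glutamine dumper proteins promote the release of amino acids from cells. GLUTAMINE DUMPER 2 (LOC102583168) drew 83, 90 and 65 counts in C, against 23 and 27 in D, and was higher in C (log2 FC 1.74, edgeR adjusted p = 0.000451). GLUTAMINE DUMPER 5-like (LOC102578841) drew 35, 37 and 36 counts in C, against 15 and 25 in D, and did not pass the test (log2 FC 0.92, edgeR adjusted p = 0.0569, and 0.0373 without D2). WAT1-related proteins include amino acid exporters in Arabidopsis, and both of those looked up were higher in C. LOC102600872 drew 288, 294 and 285 counts in C, against 124 and 90 in D (log2 FC 1.52, edgeR adjusted p = 1.21e-05), and LOC102579545 drew 62, 74 and 74 counts in C, against 40 and 39 in D (log2 FC 0.91, edgeR adjusted p = 0.0097, and 0.0505 without D1). Cationic amino acid transporter 7 (LOC102597950), whose family carries basic and other amino acids, drew 90, 112 and 115 counts in C, against 59 and 46 in D (log2 FC 1.10, edgeR adjusted p = 0.0016). LOC102601737, named probable sodium-coupled neutral amino acid transporter 6, did not pass the test (log2 FC 0.54, edgeR adjusted p = 0.151). These 6 genes too were found by name in tables ordered by change and read only in part. Their shared direction may follow from how they were found and is not read as a result. Over all tested genes, 15.8% were higher in C and 18.6% in D. LOC102597950 is also among the 5 listed transporters higher in C given above.

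AAP2 and LHT1 are both among the 43 symporters listed by the study, the proteins that move a solute together with an ion. This list was likewise drawn from differentially expressed genes of these libraries, and it was added after the values were seen. It shares 5 genes, LHT1 among them, with the list of amino acid transporters, so the counts of the lists overlap. Of the 41 other genes, 40 were tested, 13 were higher in C, 25 were higher in D and 2 did not pass the test, beside 15.8% and 18.6% over all tested genes. The median log2 FC was -0.42. Genes higher in C included LOC102596643, named as an NRT1/PTR family nitrate or peptide transporter, with 39.8 ± 1.63 CPM in C (SD, n = 3) and 15.7 ± 0.577 CPM in D (SD, n = 2; log2 FC 1.34, edgeR adjusted p = 1.38e-06). LOC102598158, of the same family by name, was at 69.3 ± 3.47 CPM in C and 36.2 ± 4.83 CPM in D (log2 FC 0.94, edgeR adjusted p = 2.87e-05). Among the genes higher in D was LOC102589479, with 20.1 ± 1.71 CPM in C and 55.3 ± 4.33 in D (log2 FC -1.46, edgeR adjusted p = 8.78e-07), for which the sources used here give no product name. The phosphate transporter gene PT1 was at 290 ± 28.5 CPM in C and 373 ± 27.3 CPM in D (log2 FC -0.37, edgeR adjusted p = 0.0138), and it did not pass without C2 (0.0656), C3 (0.0775) or D2 (0.108).

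The patterns most like that of each gene were sought over the 5 libraries, as the smallest distance between mean-centred log2 values of CPM with 0.5 added. For AAP2 these were LOC102595862, LOC102604562 and LOC102582416, with distances of 0.0234, 0.0234 and 0.0333 and log2 FCs of 0.32, 0.30 and 0.29. For LHT1 they were LOC102591561, LOC102601877 and LOC102578226, with distances of 0.0447, 0.0625 and 0.0637. LOC102591561 drew 88, 87 and 83 counts in C, against 194 and 170 in D, and LOC102601877 drew 254, 252 and 248 counts in C, against 539 and 501 in D. LOC102578226 drew only 1, 0 and 0 counts in C, against 11 and 11 in D, so its likeness rests on the added 0.5 and on few counts. With 5 libraries in 2 bulks, likeness mostly restates the size of the difference between C and D.

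The neighbouring genes of each went in both directions. Over all tested genes, 15.8% were higher in C and 18.6% in D, and the neighbours are too few to be set apart from these shares. Of the 3 annotated genes on each side of AAP2, 2 were higher in C, 1 was higher in D and 3 did not pass the test. The nearest, LOC102579842 and LOC102580489, had log2 FCs of -0.11 and 0.09 (edgeR adjusted p = 0.333 and 0.685). Of the 6 genes around LHT1, 4 could be tested, of which 1 was higher in C, 2 were higher in D and 1 did not pass the test. The gene higher in C, LOC102596590, had a log2 FC of 1.27 (edgeR adjusted p = 0.00108), opposite to LHT1. The neighbours were chosen by their place in the annotation after the values of AAP2 and LHT1 were known.

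Markers of leaf cells were read because AAP2 and LHT1 are known from different leaf cells in Arabidopsis, and in bulk tissue fewer cells of a type and less RNA per cell cannot be told apart. Over all tested genes, 15.8% were higher in C and 18.6% in D. All 6 nuclear photosynthesis genes that were in the table were higher in C, and their summed level was 3559 to 4214 CPM in C, against 1659 to 1972 CPM in D. Of 7 phloem genes, 6 were tested, 4 were higher in C and 2 did not pass the test. Their sum was 2889 to 3324 CPM in C, against 2765 to 2922 CPM in D, and was made up mostly of the sucrose transporter SUT1 (LOC102594012), which loads sucrose into the phloem. SUT1 did not pass the test (log2 FC 0.10, edgeR adjusted p = 0.468). One phloem gene, LOC102597811, drew 0 counts in every C library, against 17 and 7 in D. The 4 pollen and anther genes summed to 0.613 to 1.32 CPM in C, against 0.135 to 0.285 CPM in D, and the single xylem gene drew at most 2 counts in a C library and 5 in a D library. A senescence-associated gene, LOC102593865, drew 1, 0 and 0 counts in C, against 61 and 87 in D. Except for SUT1, these genes were found by name in tables ordered by change and read only in part. The number of markers called and their direction may follow from how they were found. The part of cell composition or leaf age in the levels of AAP2 and LHT1 was not tested.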

How the data were processed

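Leaf mRNA was sequenced as directional paired-end libraries on a BGISEQ-500. The authors aligned reads to SolTub_3.0 with TopHat (version 2.0.9) and Bowtie (version 2.1.0) and deposited raw HTSeq counts per gene, which were used as deposited. The header was read as described in the report, 1 count column was not used, and C1 to C3 and D1 to D2 were compared.

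Counts were scaled by TMM, filtered with filterByExpr (minimum count 10) and tested with the quasi-likelihood test of edgeR (version 4.0.16, R 4.3.3) with Benjamini-Hochberg adjustment over all tested genes. DESeq2 (version 1.42.0), limma voom (version 3.58.1), no filter, a replicate block, a fold change limit and leaving out each library were alternatives. The fit was tested on simulated counts with 50 genes changed at each size. It recovered 2 at a log2 FC of 0.25, 33 at 0.5, 47 at 1 and 50 at 2, and called 8 unchanged genes. A gene that did not pass the test may therefore still differ by a small amount. For genes with fewer counts the recovery was not simulated, and such a gene may differ by more.

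AAP2, LHT1 and all lists were chosen with earlier results of these data known. Transporter families, protein comparisons and levels per coding length had been planned from protein sequences, which were not used here. The rule for named genes, called genes with at least 100 counts on average and bulks apart, was applied to the study's list instead, and genes with lower counts were named after their values were seen. The annotation table gave positions and synonyms. Proteins were not analysed here.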

Additional observations from a re-analysis of the deposited data

How the results depend on the processing

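Of AAP2, LHT1 (LOC102596930) and 39 other named genes, only a neighbour of AAP2, LOC102580489, and SUT1 (LOC102594012), neither past the test, changed sign under any alternative run, to -0.0109 and -0.0043 with library totals alone. The log2 FC of AAP2 was 0.32 with DESeq2 and with its size factors, and 0.29 to 0.31 without each library. Scaling to library totals alone, added after the data were seen, gave 0.20 for AAP2, -0.996 for LHT1 and 1966 genes higher in C. The cause was not tested.

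With a log2 FC of at least 1 required, 537 and 1300 genes were higher in C and in D, 2 and 4 of the amino acid transporters, and 3 and 10 of the symporters. With a replicate block the counts were 1396 and 2052 genes, 10 transporters higher in D, and 8 and 15 symporters. The numbers pair only C1 with D1 and C2 with D2, whose deviations correlated at -0.455. With D1 and D2 as the only libraries of D analysed, this cannot show whether libraries of the same number were handled together. With the header as it stands, fitted as C1 and C2 against C3, D1 and D2 and still without the unused column (a C library under that reading), 0 genes, transporters and symporters passed in either direction (edgeR; 1301 genes had an unadjusted p under 0.05; no other tool was run), and the log2 FCs were 0.21 for AAP2 and -0.63 for LHT1. DESeq2 called 14 transporters higher in D.

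Without each library in turn, 2029 to 3038 genes were higher in C, 2394 to 3811 genes were higher in D, and 10 to 15 transporters were higher in D. The planned stricter family rule and the family alternatives were not run, since no families were built. Depth leaves genes with few counts, LOC102597051 among them, untested.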
